A study of Arabidopsis thaliana with 4 samples.

Results

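A set of 123 Arabidopsis thaliana loci that carry a locus number and no gene symbol is described here in inflorescences of the floral mutant agamous and of wild type. The loci were chosen on the measured values themselves. Of the 4900 unnamed loci with a probe that lists them alone, 4616 had a log2 ratio inside plus and minus 6.6 on each of 4 arrays. A locus was taken when its mean ratio was 0.8 or more (1.74-fold) and its ratio on every array 0.4 or more (1.32-fold), with the signs of arrays 2 and 3 turned. These conditions held for 125 of the 4616 loci (2.71%), and AT4G19380 and AT4G24140 were left out by name. The height of the 123 loci is therefore a description of how they were chosen and no test was made of it. The annotation used here pairs these loci with no product or gene family, so that each is given by its locus number.

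AGAMOUS is a MADS-domain transcription factor of the floral C function. Stamens and carpels need it, and it stops the floral meristem once the carpels have formed. In agamous flowers petals take the place of stamens and a new flower that begins with sepals takes the place of the carpels, so that the flower repeats sepals and petals. The organs that make up the samples thus differ as well as the gene. In whole inflorescences more cells of a type and more RNA per cell cannot be told apart.

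Each of the 4 2-colour oligonucleotide arrays was hybridised with both RNAs, one from agamous and one from wild-type inflorescences, and gave 1 ratio per feature. The labels give neither the agamous allele nor the ecotype, the age of the plants or the number of plants, and they do not say whether the 4 sets are separate plants, so that an SD over arrays may be technical. By the labels, channel 1 held the mutant's RNA on arrays 1 and 3, whereas channel 2 did so for arrays 2 and 4. Precision is limited by having 4 arrays, and an exact two-sided sign-flip test over 4 arrays could not give a p below 0.125.

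The direction of the ratios is not settled. Across A-numbered probes with values inside the bounds, Pearson's r of the deposited ratios was 0.70 for the pair of arrays 1 and 4, and 0.76 for the pair 2 and 3. For arrays 1 and 3, which should share a channel order per the labels, it was -0.65, and for arrays 2 and 4 it was -0.70. Turning arrays 2 and 3 gives all arrays 1 direction, and the overall sign is called likely because anther genes then fall on the agamous side, from which stamens are missing. ATA20, an anther gene, had turned ratios of -2.66, -2.98, -3.09 and -2.58 on arrays 1 to 4. EMS1, the receptor kinase of tapetum specification, had -1.32, -1.33, -1.35 and -1.39. SPL, another anther marker, was below 0 on all 4 arrays, but its mean was only -0.22 ± 0.10 (SD, n = 4). The pollen marker TUA1 had -0.44 ± 0.15 and the ovule marker INO -1.52 ± 0.47 (SD, n = 4 each). SWEET9, a nectary marker, had -4.55 ± 0.66 (SD, n = 4). The photosynthesis markers PRK and SBPASE had 0.33 ± 0.28 and 0.04 ± 0.07 (SD, n = 4 each). The meristem marker CLV3 was beyond the bounds on array 1 and had 0.37, 0.53 and -0.03 on arrays 2 to 4. Of the 6 floral identity genes set as markers of the tissue, AG, AP1, AP3, PI, LFY and SEP3, 0 were measured by a probe of their own, so that neither the mutated gene nor the labelled tissue could be checked by them. Higher means a positive turned ratio from here on, and with the opposite overall sign every mean of the 123 loci, from 0.80 to 1.92, becomes a mean from -1.92 to -0.80.

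The choice of the loci fixes their signs on the arrays, positive on arrays 1 and 4 and negative on arrays 2 and 3 as deposited, so that the agreement of the arrays is no finding. For the ratios as deposited their means ran from -1.0 to 0.62 with a median of 0.05. Turned by the channel labels, the means ran from -0.31 to 0.64 with a median of 0.14.

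The 123 loci formed a small group with modest ratios at the upper end of a continuous distribution. The median of their means was 0.96 (1.95-fold), the quartiles were 0.85 and 1.15 and the highest mean was 1.92 (3.78-fold). Over all 4616 unnamed loci the median of the means was 0.17. The same conditions with the sign reversed were met by 308 of the 4616 loci (6.67%), with a median of the means of -1.81 and the lowest at -5.26. A mean of at least 2-fold together with 0.4 on every array was found for 50 of the 123 loci, and for 52 of all 4616 (1.13%), whereas 276 (5.98%) were 2-fold or more in the lower direction. Higher loci thus were fewer, and reached smaller ratios, than lower ones.

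**Figure D1:**
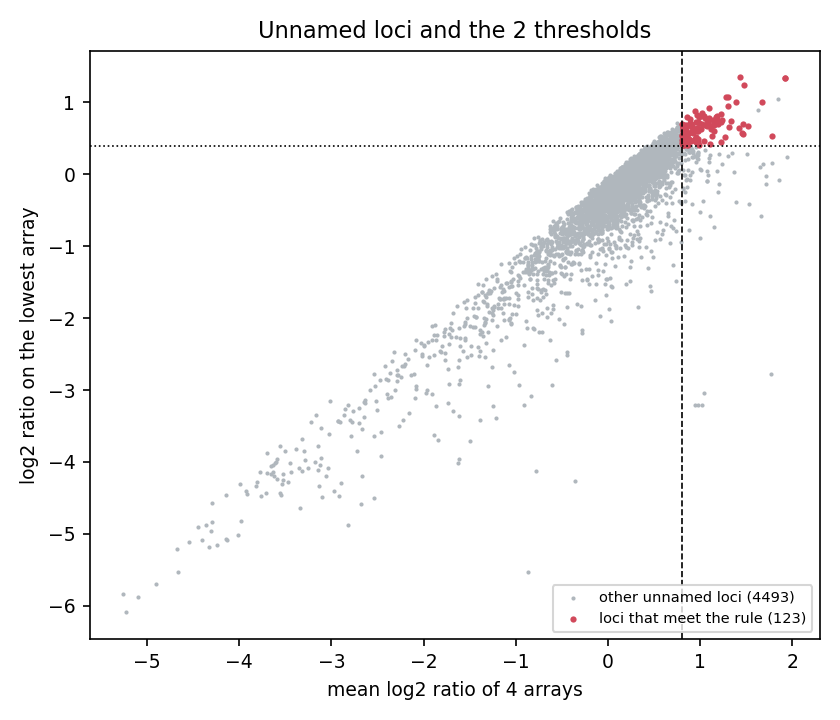
Mean log2 ratio of 4 arrays (x axis) against the log2 ratio on the lowest array (y axis) for the 4616 unnamed loci, with lines at the thresholds of 0.8 and 0.4. The 123 loci (red) fill the upper right corner with no gap to the other 4493 (grey), and the 2 grey points in the corner are the loci left out by name.

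The conditions were met outside the unnamed loci as well. Loci with a symbol met them in 19 of 515 cases (3.69%), and A-numbered probes that are not paired with 1 gene in 519 of 19109 (2.72%). Features that the table names as empty met them in 7 of 74 cases with 4 values inside the bounds (9.46%), against 2 of 74 (2.7%) with the sign reversed. The 7 empty features had means from 0.88 to 1.63. Over all 74 the median of the means was 0.58, against 0.17 over the 4616 unnamed loci. A further 278 of the 424 empty features (65.6%) had a value beyond the bounds, compared with 4.33% of unnamed loci. Probes of the GP series, a second set of probes on these arrays, met them in 36 of 353 cases (10.2%). Ratios of the size of those of the 123 loci therefore arose where no gene was probed. Scanner signals were not used here, and the part of weak signal in the ratios of the 123 loci was not tested.

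AT5G03350 had the highest mean. Its ratios were 1.94, 2.63, 1.77 and 1.34 on arrays 1 to 4, a mean of 1.92 ± 0.54 (SD, n = 4). Its mean was 1 of 5 at or above 1.5. AT3G13840 followed with 2.38, 2.08, 1.34 and 1.86, a mean of 1.91 ± 0.44 (SD, n = 4). The means of AT5G03350 and AT3G13840 differed by less than either SD, so that their order carries no weight. Quantile normalization of the turned arrays raised these means to 3.09 for AT5G03350 and 2.94 for AT3G13840. Probes with values beyond the bounds entered that normalization, and their part in this and later rises was not tested. Centring each array on its median lowered both means to 1.79. AT5G55720 had 2.21, 2.26, 1.21 and 1.0, and AT2G39560 had 1.97, 2.15, 0.67 and 1.28. In both, arrays 1 and 2 were above arrays 3 and 4 without overlap, and the means were 1.67 ± 0.66 and 1.52 ± 0.68 (SD, n = 4 each). AT5G55720 had 2.67 after quantile normalization and 1.54 after centring.

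The ratios of AT3G22150, AT1G05040 and AT1G80940 spread most over the arrays. AT3G22150 had 3.55 on array 2 and 2.0 on array 3, but 1.03 on array 1 and 0.53 on array 4, a mean of 1.78 ± 1.33 (SD, n = 4). That mean was 1.19 without array 2, 2.87 after quantile normalization and 1.65 after centring. AT1G05040 had 3.51 on array 1 and 0.56, 1.14 and 0.65 on arrays 2 to 4, so that its mean of 1.47 ± 1.39 (SD, n = 4) rests largely on array 1. AT1G80940 had 2.65 on array 4 and 1.73 on array 2, against 0.67 and 0.65 on arrays 1 and 3. Without array 1 the mean of AT1G05040 was 0.78, under the minimum for the set.

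Of the 12 loci with the highest means, AT1G49790 had the closest values over the arrays. It had 1.55, 1.35, 1.48 and 1.37, a mean of 1.44 ± 0.09 (SD, n = 4), the highest lowest-array value of the 123 loci. AT4G17810 had 1.47, 1.38, 1.24 and 1.81, and AT3G45160 had 1.01, 1.59, 1.71 and 1.25. After quantile normalization the means of AT1G49790, AT4G17810 and AT3G45160 were 2.68, 2.73 and 2.86, and after centring 1.31, 1.35 and 1.26. AT3G29300 (1.74, 2.0, 0.70 and 1.41) and AT2G03130 (2.22, 1.41, 0.58 and 1.62) complete the 12 loci with the highest means, and both were lowest on array 3. A ratio of 1 or more on all 4 arrays, a count made after the values were seen, was found for 8 of the 123 loci: AT5G03350, AT3G13840, AT5G55720, AT4G17810, AT1G49790, AT3G45160, AT1G54050 and AT1G30600.

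**Figure D2:**
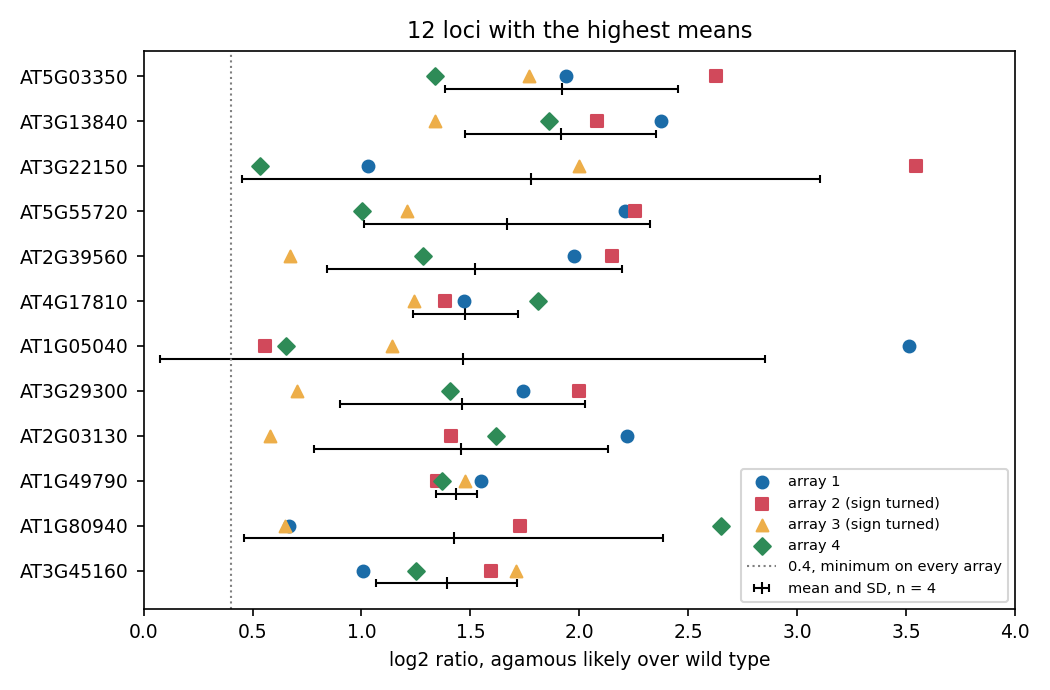
Turned log2 ratios of the 12 loci with the highest means, 1 symbol per array, with the mean and SD of 4 arrays below each row and a line at 0.4. AT1G49790 has the closest symbols, with an SD of 0.09, whereas AT3G22150 and AT1G05040 each have a single value above 3.5.

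The other 38 loci with a mean of at least 2-fold had means from 1.01 to 1.34 and a median SD of 0.36. On chromosome 1 they were AT1G12100, AT1G20530, AT1G30600, AT1G33080, AT1G52000, AT1G53070, AT1G54050, AT1G64920, AT1G79720 and AT1G80640. On chromosome 2 they were AT2G21550, AT2G21680, AT2G34060, AT2G40250 and AT2G47720, and on chromosome 4 AT4G22730, AT4G27300 and AT4G33130. Chromosome 3 held AT3G01960, AT3G06880, AT3G19430, AT3G21080, AT3G25490, AT3G28690, AT3G29410, AT3G58770 and AT3G62510. Chromosome 5 held AT5G04000, AT5G05120, AT5G10150, AT5G13830, AT5G23510, AT5G36960, AT5G45530, AT5G46680, AT5G49960, AT5G50740 and AT5G61520. The remaining 73 loci had means from 0.80 to 0.99 with a median SD of 0.29, and 43 of the 123 loci were under 0.9.

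**Figure D3:**
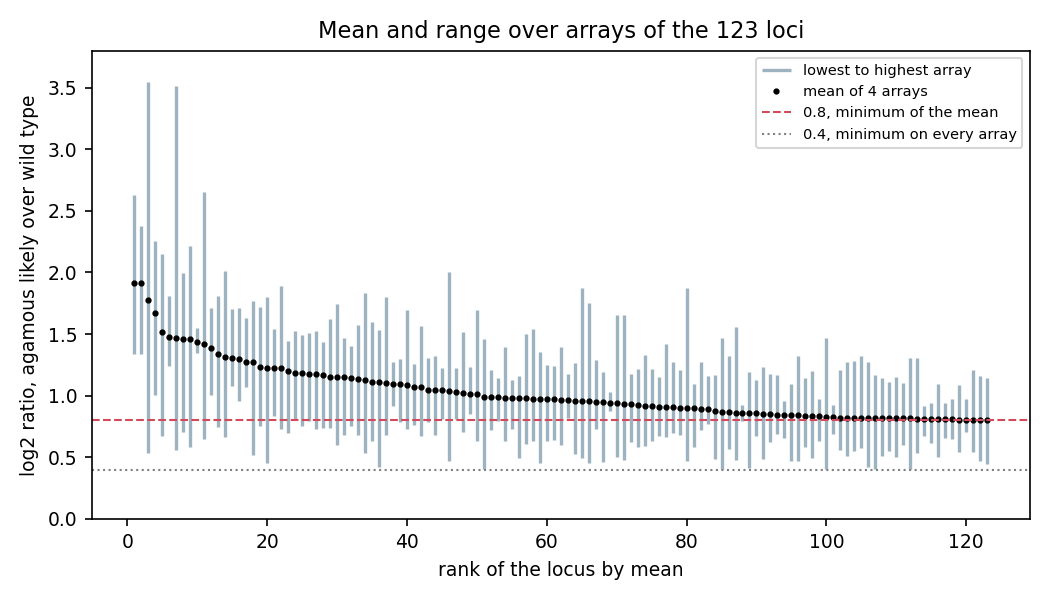
Mean (points) and lowest to highest array (bars) of the turned log2 ratio for the 123 loci in order of their mean, with lines at 0.8 and 0.4. The means fall from 1.92 to 0.80, and from about the 50th locus on they lie under 1.

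Values on both sides of the thresholds were alike. The 3 loci just inside the minimum for the mean were AT5G43000, AT3G10080 and AT5G10900, all with a mean of 0.80, and the 3 just outside were AT4G01740, AT2G01870 and AT2G03380, which also round to 0.80. On the lowest array AT1G32740 (0.40 on array 2), AT5G36900 (0.40 on array 3) and AT3G54790 (0.41 on array 4) were just inside, and AT5G55650 (0.39), AT2G02550 (0.38) and AT5G51930 (0.37) just outside. The mean of AT5G36900, 0.87, became 1.47 after quantile normalization and 0.74 after centring. A further 182 loci had 0.4 or more on every array with a mean under 0.8, and 85 had a mean of 0.8 or more with an array under 0.4. Another 15 loci met both conditions but for a value beyond the bounds.

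The spread over arrays was smaller than the mean for all 123 loci, which the minimum on every array favours. The SD ran from 0.07 to 1.39 with a median of 0.32, against a median of 0.29 over the 4616 loci. The mean was at least 2 SD for 109 of the 123 loci and at least 3 SD for 62, which both minima favour. The median ratio of mean to SD was 3.02 for the 123 loci and 0.60 over the 4616. These counts follow from the choice and are no measure of how well the loci repeat. AT5G53700, at the low end of the spread, had 0.91, 0.81, 0.80 and 0.93, a mean of 0.86 ± 0.07 (SD, n = 4). AT3G24420 had 1.03, 0.88, 0.90 and 0.96, a mean of 0.94 ± 0.07 (SD, n = 4).

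The arrays did not contribute alike. On array 1 the median ratio of the 123 loci was 1.15, followed by 1.10 on array 2, whereas it was 0.76 for array 3 and 0.83 for array 4. Over all 4616 loci the medians were 0.17, 0.18, 0.16 and 0.15. Array 1 was the highest of the 4 for 51 loci (41.5%, against 31.7% of the 4616) and array 2 for 40 (32.5%, against 23.4%). Array 3 was the lowest for 62 loci (50.4%, against 28.4%). For array 4, lowest for 31 loci (25.2%), the share was near the 26.3% of the 4616. Arrays 1 and 2 lay above arrays 3 and 4 without overlap for 55 of the 123 loci (44.7%), compared with 21% of the 4616, and the reverse held for 6 loci (4.88%, against 13.1%). The spread over all A-numbered probes moved the same way: the median absolute deviation was 0.38 on array 1, 0.36 for array 2, 0.30 for array 3 and 0.31 for array 4, and its part in the result was not tested. The 308 loci of the lower direction did not follow that order, with medians of -1.75, -2.07, -1.92 and -1.81 on arrays 1 to 4. Between the pairs that the signs define, arrays 1 and 4 were above arrays 2 and 3 without overlap for 20 loci (16.3%, against 21% of the 4616) and below them for 14 (11.4%, against 19.5%). The 123 loci were chosen on these same ratios, so that their shares can differ from those of the 4616 through the choice alone.

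**Figure D4:**
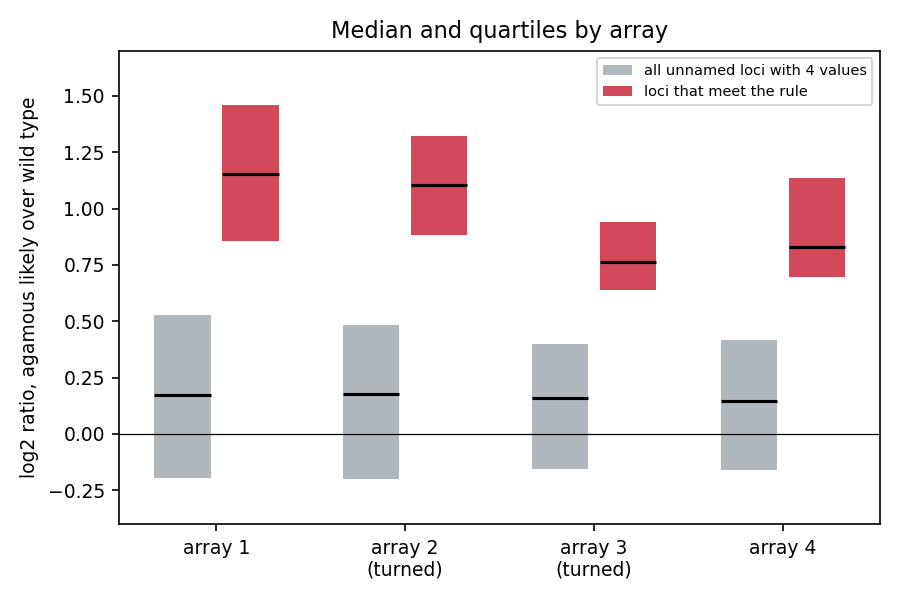
Median (line) and quartiles (box) of the turned log2 ratio on each array for the 4616 unnamed loci (grey) and the 123 loci (red). The red medians of 1.15 (array 1) and 1.10 (array 2) exceed those of 0.76 (array 3) and 0.83 (array 4), whereas the grey medians lie between 0.15 and 0.18.

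The median A-numbered probe stood above 0 in the turned ratios, by 0.14 on arrays 1 and 2 and 0.12 on arrays 3 and 4. Over the 4616 unnamed loci the mean ratio of each array lay nearer 0, at 0.08, 0.03, -0.01 and 0.03. After each array was centred on that median, 60 of the 123 loci still met both conditions and no other unnamed locus did, the 2 left out by name aside, while 365 loci met them in the lower direction. The centred means of the 123 loci ran from 0.67 to 1.79 with a median of 0.84. In 71 of the 123 loci the conditions also held on the other arrays whichever single array was left out. Of these, 56 met them as well after centring, after centring and scaling and after quantile normalization, among them 11 of the 12 loci with the highest means. These counts reuse the ratios that chose the loci. Every locus already met the minimum on each array, so that only the mean could fail when an array was left out. The highest means lie furthest above the minimum for the mean, which favours those 12 loci. The counts are therefore no measure of how well the loci repeat.

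Some of the loci are also listed, together with other genes, on probes of the same arrays that did not enter the choice. No probe of the GP series listed 1 of the 123 loci alone. A-numbered probes that list several genes, 1 of them among the 123 loci, numbered 62, of which 56 had 4 values inside the bounds, and they covered 51 of the 123 loci. Of these 56 probes, 9 met the conditions (16.1%) and 2 met them in the lower direction (3.57%). Of all 6961 A-numbered probes that list several genes, 197 (2.83%) and 619 (8.89%) did. The median of the means of the 56 probes was 0.32, with quartiles of -0.03 and 0.55, against 0.12 for the 6961. All 4 arrays were above 0 for 27 of the 56 (48.2%) and for 30.5% of the 6961. Such probes may report any of the genes they list, a median of 3 each, so that they show neither that a given locus was higher nor that it was not. They share arrays and dyes with the probes of the 123 loci.

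Only 3 of the 123 loci had more than 1 probe of their own, each 2 probes. The probes of AT1G79720, whose mean became 1.84 after quantile normalization and 0.97 after centring, had means of 1.05 ± 0.19 and 1.14 ± 0.27, and those of AT3G24420 0.91 ± 0.06 and 0.97 ± 0.13 (SD, n = 4 each), a difference smaller than either SD in AT1G79720 and smaller than the larger SD in AT3G24420. The probes of AT3G21080 had 1.48 ± 0.53 and 0.87 ± 0.41 (SD, n = 4 each). On array 3 they read 2.04 and 0.40, so that the disagreement within AT3G21080 lies mainly there. The other 120 loci rest on 1 probe each.

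The 123 loci were spread over the 5 chromosomes. Chromosome 3 held 33 of them, 3.27% of its 1010 unnamed loci with 4 values, and chromosome 4 held 11, 1.65% of 666. On chromosomes 1, 2 and 5 the shares were 2.66% (31 of 1165), 2.83% (19 of 672) and 2.63% (29 of 1103). Within each chromosome the median of the means lay between 0.92 and 0.98, a narrow range that the common minimum of 0.8 favours.

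The loci did not lie next to each other. In the order of protein-coding genes of the reference assembly, no 2 of the 123 loci were adjacent, and 4 pairs had from 1 to 4 genes between them: AT5G43000 and AT5G43020, AT1G26290 and AT1G26330, AT3G25490 and AT3G25510, and AT3G58720 and AT3G58770. Such counts were not made for other sets of unnamed loci, so that nothing is concluded from them. For 46 of the 123 loci at least 1 flanking gene was measured singly, which gave 51 pairs of a locus and a flanking gene. The flanking genes' means had a median of 0.16, compared with 0.15 for 1885 pairs of other unnamed loci and a flanking gene, and 0 of 51 met the conditions (0%), against 53 of 1885 (2.81%). At that share few of 51 pairs would meet them, so that 0 carries little weight. An unnamed flanking gene that met them would in general be among the 123 loci itself, and few flanking genes had a symbol. The 0 thus largely repeats that no 2 of the loci were adjacent. The flanking gene closest to the conditions was AT1G53060, next to AT1G53070 (mean 1.23), with a mean of 0.80 ± 0.19 (SD, n = 4) that misses the minimum. At the other end AT1G26320, next to AT1G26330 (mean 0.92), had -3.62 ± 0.58, and AT5G53710, next to AT5G53700, had -1.71 ± 0.29 (SD, n = 4 each). These neighbours were chosen after their values were seen.

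**Figure D5:**
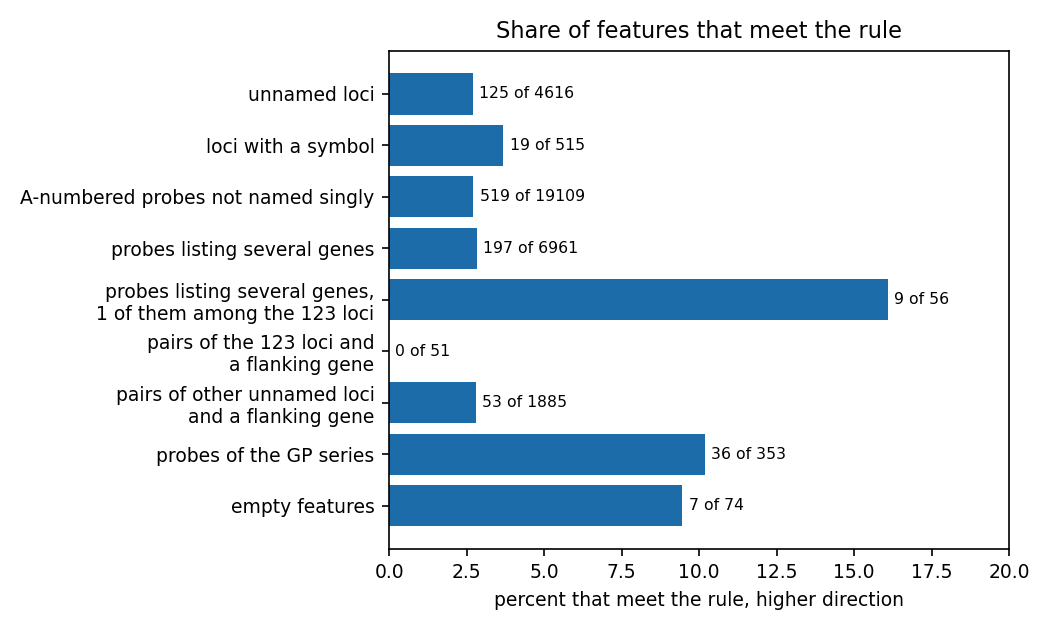
Percent of features (x axis) that meet the conditions in the higher direction, by kind of feature, with the counts beside each bar. Probes that list several genes, 1 of them among the 123 loci, stand at 16.1%, empty features at 9.46%, probes of the GP series at 10.2% and the other kinds between 0% and 3.69%.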

How the data were processed

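The deposited values are log2 ratios of both channels, 1 per feature and array, normalized by the authors as in a publication that the labels cite; the steps are not given in the sources used here. The values themselves gave the log2 scale: they end at plus and minus 6.64, a 100-fold ratio. The numerator channel, and whether swapped arrays were turned, is not stated, and the centring is unknown beyond the medians of the arrays. All 26933 features and all columns were read. Probes were named from the platform annotation, and symbols and neighbours came from the RefSeq table of assembly TAIR10.1, in which all 123 loci matched. Coordinates are not given, since no build is named for the probes.

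Probes of a locus were averaged (225 of 4900 loci had more than 1). The code of the selection was run on simulated loci with known means. Their spread was narrower than that of these data, so that the run checks the code and not the loci. Python 3.11.15, pandas 2.3.3, R 4.3.3 and limma 3.58.1 (quantile normalization only) were used. Quantile normalization took all A-numbered probes, those with values beyond the bounds included. No test was made of the ratios or of any comparison, and Dixon's criterion served only to pick out single arrays that stood apart. The loci, thresholds and alternatives were chosen with earlier results of these data known. Named loci are the 12 highest means, the 3 smallest and 3 largest SDs, those nearest each threshold and those with several probes. Also listed are the markers, all loci with means of at least 2-fold, the close pairs, those left out by name and those that Dixon's criterion picked out. Any others are said to be chosen after their values were seen. A planned count by product family, and planned protein and promoter features, were not made for lack of annotation and sequences. Alternatives were other signs, centring, scaling, quantile normalization, other thresholds and rules for values, averaged arrays and each array left out.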

Additional observations from a re-analysis of the deposited data

Results flagged for a closer look

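In 2 of the 123 loci 1 array stood apart from the other 3 by Dixon's criterion (the gap to the nearest array against the whole range of the 4, at the 95% level). AT3G30460 had 0.50 on array 3 and from 1.12 to 1.16 on the others. AT5G13140 had 1.27 on array 2 and from 0.72 to 0.79 on the others. Chance gives about 1 such set of 4 in 20, and the minimum on every array limits low values.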

How the results depend on the processing

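The count of 123 loci depended on the signs, the centring and the thresholds. It was 1 for the ratios as deposited and 1 when arrays 2 and 4 were turned by the labels, neither of them among the 123. Centring on array medians gave 60, and centring with scaling 59, all among the 123; the median of all probes had moved by 0.12 to 0.14. A mean of 1 or more gave 50, a mean of 0.6 or more 262, and 0.6 on every array 75. Leaving out each array in turn gave 116 to 197 loci, the higher counts without arrays 3 (197) and 4 (196). The cause was not tested. Of the 123 loci, 97, 100, 114 and 114 remained without arrays 1, 2, 3 and 4. Only their mean could fail there, since the choice had set a minimum on every array. The count stayed within 1.5 times under the other settings tried: 156 after quantile normalization (117 shared), 123 when every probe had to pass, 125 with 3 values, 138 with values at the bounds, 174 with every array above 0 and 180 with averaged pairs of arrays. The opposite overall sign, with the conditions reversed as well, gives the same 123 loci in the lower direction. That holds by construction and is no check of the count. The median of the means was 0.96 and became 1.22 after quantile normalization. It was 0.84 after centring, 0.83 after centring with scaling, 0.93 with medians over arrays, and 0.92 to 1.03 without single arrays. Of 22 named loci, 11 moved by more than their SD after quantile normalization and 3 after centring, with or without scaling. These 3 were AT1G49790, AT3G24420 and AT5G53700, the loci with the smallest SD. No paired analysis was possible because each array is already 1 paired ratio of both RNAs and there is 1 group of arrays. Signal over background was not used here, so that its limits on these ratios are unknown.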
